A study of Arabidopsis thaliana with 30 samples.

Results

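Whether loss of the long non-coding RNA LINDA changes how Arabidopsis thaliana seedlings answer UV-C was examined as an interaction: the UV-C response of the Δlinda mutant minus the UV-C response of the wild type Col-0, gene by gene. The comparison used the 16 libraries, of 30 in the series, that belong to its 4 groups. These were Δlinda given 2 kJ UV-C (n = 4), Δlinda in normal light (n = 4), Col-0 given 2 kJ UV-C (n = 4) and Col-0 in normal light (n = 4), the last being the untreated wild type. All were whole seedlings 14 days old, raised on agar plates in short days. The UV-C seedlings were harvested 3 h after treatment, and the titles of the normal light libraries carry no time. The labels give no area for the UV-C dose, no number of mutant lines and no extent of the deletion, and they do not say whether libraries of a group came from separate plates, so p-values measure the spread between these libraries.

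UV-C is absorbed by DNA and joins neighbouring pyrimidines. Plants reverse such lesions with light-driven photolyases or cut them out by nucleotide excision repair, and strong UV-C also sets off calcium, MAP kinase, salicylic acid and jasmonate signalling of the kind used against pathogens. A long non-coding RNA is a transcript with no known protein product, and the title of the study ties LINDA to the fate of cells after DNA damage. An interaction on the log2 scale is the difference between the log2 fold changes of both genotypes: a positive value means a larger rise, or a smaller fall, in Δlinda than in Col-0. It can come from different levels after UV-C, from different levels in normal light, or from both.

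The restored library totals ranged from 7.966 M to 14.58 M estimated counts in Δlinda and from 13.08 M to 15.09 M in Col-0; the lowest was normal light Δlinda replicate 1. The first principal component held 85.9% of the variance and separated UV-C from normal light, while on the second, with 2.3%, normal light Δlinda replicates 2 and 4 lay apart from the other normal light libraries. An 18S ribosomal RNA locus (AT3G41768) and the transcript AT3G06365, whose decimals were unclear and which were not tested, took 6.11% to 9.39% of counts in UV-C Δlinda, 0.699% to 1.15% in normal light Δlinda, 10.5% to 12.7% in UV-C Col-0 and 0.87% to 1.64% in normal light Col-0. After UV-C the ranges of the 2 genotypes did not overlap. The part of this difference in the results was not tested.

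No gene passed the test for an interaction. Of 19092 genes tested with edgeR's quasi-likelihood test on estimated counts, 0 had a Benjamini-Hochberg adjusted p below 0.05 (0% of the genes tested), and 1484 (7.77%) had an unadjusted p below 0.05, 844 of them with a positive and 640 with a negative interaction. The smallest adjusted p was 0.252. DESeq2's Wald test called 33 genes, 15 positive and 18 negative, among the 11687 genes for which it gave an adjusted p. Without normal light Col-0 replicate 2 edgeR called 9 genes, and without normal light Δlinda replicate 3 it called 1, so the count of 0 rests in part on single normal light libraries.

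The UV-C response itself was broad in both genotypes. In Δlinda 7169 genes rose (37.5% of those tested) and 6615 fell (34.6%), together 72.2%. In Col-0 7117 rose (37.3%) and 6828 fell (35.8%), together 73%. Of the calls, 12505 were shared in direction, which is 90.7% of the Δlinda calls and 89.7% of the Col-0 calls, and 1 gene was called in opposite directions. The median interaction over all tested genes was 0.016 on the log2 scale, with a median standard error of 0.233. The 95% confidence interval lay wholly within a 2-fold difference in response, in either direction, for 13308 genes (69.7%). Among the 14576 genes with a mean of 5 CPM or more (counts scaled to a common library size) this held for 12608 genes (86.5%), and among the 4516 weaker genes for 700 (15.5%). For the other genes the interval reached a 2-fold difference in response or more, so such a difference was not resolved.

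**Figure D1:**
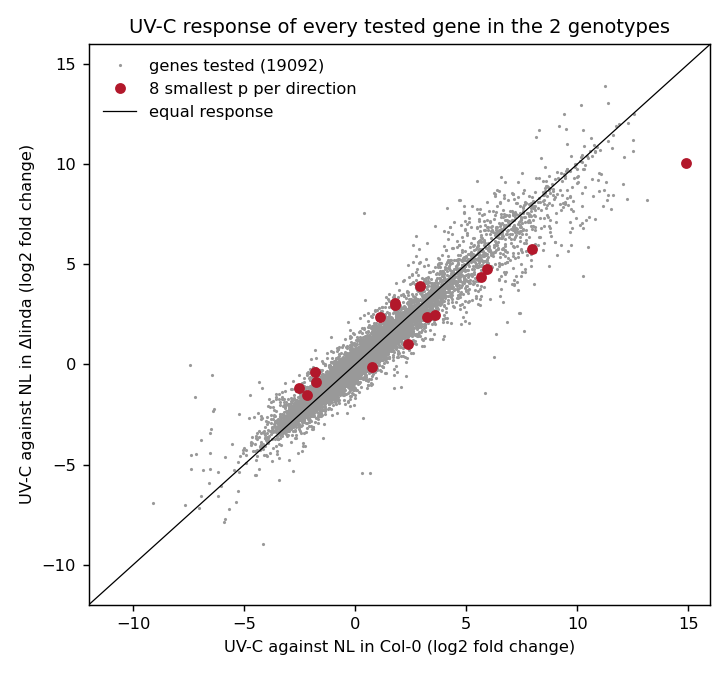
Log2 fold change of UV-C against normal light in Δlinda (vertical axis) against the same in Col-0 (horizontal axis) for 19092 genes, with the 8 smallest p of each direction in red and the line of equal response in black. The red points lie on both sides of the line of equal response; the red point farthest to the right is GSTU9, which had no counts in normal light Col-0, so its position there depends on the prior count.

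The transcript AT3G00800, taken here as the LINDA locus from general knowledge of the study, was detected almost only after UV-C. It had 1.03, 1.85, 1.88 and 1.51 CPM in UV-C Δlinda, 0 CPM in all 4 normal light Δlinda libraries, 12.2, 5.87, 11.3 and 8.16 CPM in UV-C Col-0, and 0.0795, 0, 0 and 0 CPM in normal light Col-0. All UV-C Δlinda libraries lay below all UV-C Col-0 libraries. The genotype difference after UV-C was a log2 fold change of -2.58 ± 0.30 (SE; edgeR, adjusted p = 4e-04), so that the mutant libraries were lower but not at 0; since the deleted part is not given, this level does not check the labels. In Δlinda UV-C raised the transcript at least 25.2-fold over the level that 3 counts across the 4 normal light libraries allow. The fitted interaction was -1.01 with a 95% interval of -5.03 to 3.01 (adjusted p = 0.92), and with 0 and 1 counts in the normal light groups it depends on the prior count.

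AT3G45730, a short protein-coding gene of unknown function fixed for description beside LINDA, showed large responses in both genotypes. It had 86.9, 170, 143 and 110 CPM in UV-C Δlinda, 1.69, 2.28, 2.4 and 1.66 CPM in normal light Δlinda, 116, 128, 134 and 119 CPM in UV-C Col-0, and 3.5, 3.18, 2.45 and 1.83 CPM in normal light Col-0. The genotypes overlapped in each condition. Its UV-C response was 5.97 ± 0.23 in Δlinda and 5.51 ± 0.21 in Col-0 on the log2 scale, and its interaction was 0.46 with an interval of -0.2 to 1.12 (adjusted p = 0.75).

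**Figure D2:**
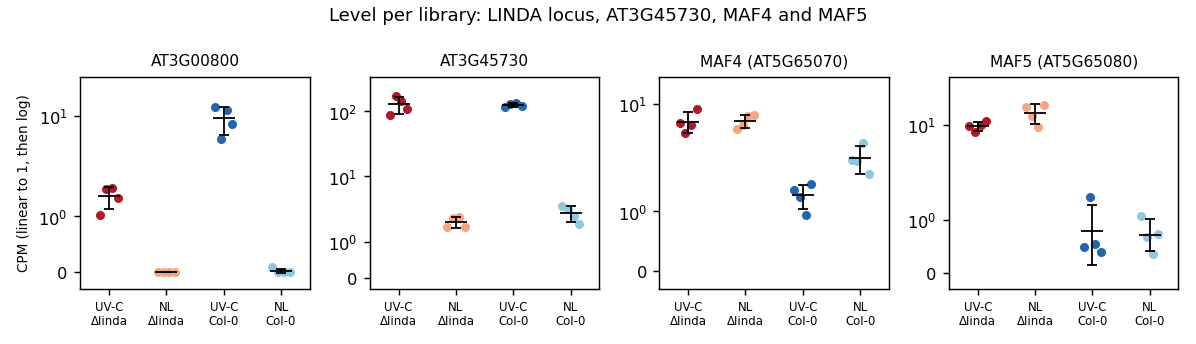
CPM per library (vertical axis, linear up to 1 and logarithmic above) of AT3G00800, AT3G45730, MAF4 and MAF5 in the 4 groups; points are libraries, bars the mean and SD. AT3G00800 separates the genotypes after UV-C only, while MAF5 separates them in both conditions.

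The genes named next have the 8 smallest edgeR p in each direction among genes with a mean of 5 CPM or more. None of them was called by edgeR. DESeq2 called all of them except AT3G49320 and AT2G33710, with adjusted p from 7e-06 (GAD4) to 0.048 (GSTU9). The edgeR p only ranked the genes, and what follows describes their levels. On the positive side, 4 genes rose after UV-C in both genotypes, and their normal light level was lower in Δlinda. NDR1 (AT3G20600), which anchors resistance signalling by one class of immune receptors at the plasma membrane, had 32.8, 36.9, 40.5 and 28.1 CPM in UV-C Δlinda, 4.3, 3.6, 4.98 and 3.88 CPM in normal light Δlinda, 33, 30.8, 37.4 and 31.6 CPM in UV-C Col-0, and 10.5, 6.19, 8.37 and 13.4 CPM in normal light Col-0. The genotypes overlapped after UV-C and did not in normal light. The response was 3.05 ± 0.19 in Δlinda and 1.78 ± 0.17 in Col-0, and the interaction 1.27 ± 0.26 (interval 0.74 to 1.8, adjusted p = 0.25).

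MSS1 (AT5G26340), a sugar transporter also known as STP13, showed the same order of levels. It averaged 375 ± 67.4 CPM in UV-C Δlinda, 24.7 ± 4.94 in normal light Δlinda, 382 ± 56.1 in UV-C Col-0 and 49.6 ± 4.5 in normal light Col-0 (SD, n = 4 each), with an interaction of 0.98 ± 0.21. MEK1 (AT4G26070), a MAP kinase kinase, averaged 108 ± 13.6 CPM in UV-C Δlinda, 13.7 ± 1.76 in normal light Δlinda, 93.6 ± 7.39 in UV-C Col-0 and 27.1 ± 9.56 in normal light Col-0, with an interaction of 1.19 ± 0.26. Its normal light groups overlapped, the lowest Col-0 library being replicate 2. AT1G72910, which encodes a protein with the TIR domain of immune receptors, averaged 43.2 ± 12.1 CPM in UV-C Δlinda, 8.48 ± 2.01 in normal light Δlinda, 39.1 ± 3.44 in UV-C Col-0 and 17.8 ± 4.53 in normal light Col-0; all 16 of its estimates carried restored decimals.

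The other 4 genes of the positive side had negative responses, smaller in size in Δlinda, and again a lower normal light level in Δlinda. GRP7 (AT2G21660), a clock-regulated RNA-binding protein, had 107, 171, 160 and 154 CPM in UV-C Δlinda, 304, 323, 271 and 193 CPM in normal light Δlinda, 121, 133, 116 and 134 CPM in UV-C Col-0, and 433, 422, 424 and 430 CPM in normal light Col-0. The normal light Col-0 libraries lay close together and above every Δlinda library. AT2G33830, annotated as dormancy and auxin associated, averaged 6.65 ± 1.42 CPM in UV-C Δlinda, 15.1 ± 3.89 in normal light Δlinda, 7.58 ± 1.74 in UV-C Col-0 and 43.9 ± 5.99 in normal light Col-0, with responses of -1.19 ± 0.20 in Δlinda and -2.53 ± 0.19 in Col-0. AT4G16146 had an interaction of 1.44 ± 0.32, its response being -0.37 ± 0.23 in Δlinda and -1.82 ± 0.23 in Col-0. AT2G46550 had the smallest interaction of the 16, 0.61 ± 0.14.

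On the negative side the normal light level was higher in Δlinda for all 8 genes. GAD4 (AT2G02010), a glutamate decarboxylase that makes the stress metabolite GABA, had 244, 229, 260 and 235 CPM in UV-C Δlinda, 3.26, 3.87, 2.32 and 7.62 CPM in normal light Δlinda, 293, 254, 336 and 301 CPM in UV-C Col-0, and 0.954, 1.59, 0.649 and 1.54 CPM in normal light Col-0. The normal light groups did not overlap, and normal light Δlinda replicate 4 was the highest of them. The response was 5.78 ± 0.25 in Δlinda and 7.97 ± 0.29 in Col-0. Its interaction of -2.19 ± 0.38 (interval -2.98 to -1.4) had the smallest p of all genes, 1.38e-05, and an adjusted p of 0.25; the adjusted p was 7e-06 with DESeq2, 0.0088 without normal light Δlinda replicate 3 and 0.042 without normal light Col-0 replicate 2. Over the 16 fits that each left out 1 library it ranged from 0.0088 to 0.46, and the interaction from -2.4 to -1.72, being -1.72 without normal light Δlinda replicate 4. Of the negative genes described below, CP1, CRK41, AT3G49320, AT2G33710 and AT1G54010 also had their smallest interactions in size without that library. These were -0.92, -0.72, -1.15, -1.1 and -0.8. For SRO2 and GSTU9 the smallest came without normal light Δlinda replicates 3 (-1.05) and 2 (-4.15). The part of normal light Δlinda replicate 4 in these genes was not tested.

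SRO2 (AT1G23550), of a plant family related to poly(ADP-ribose) polymerases, averaged 77 ± 9.2 CPM in UV-C Δlinda, 2.74 ± 0.549 in normal light Δlinda, 86.7 ± 11.7 in UV-C Col-0 and 1.42 ± 0.162 in normal light Col-0, with an interaction of -1.14 ± 0.23. CP1 (AT5G49480), a calcium-binding protein, averaged 253 ± 48.3 CPM in UV-C Δlinda, 46.2 ± 14.3 in normal light Δlinda, 275 ± 19.7 in UV-C Col-0 and 23 ± 1.39 in normal light Col-0, with an interaction of -1.13 ± 0.23. The receptor-like kinase gene CRK41 (AT4G00970) averaged 62.2 ± 1.37 CPM in UV-C Δlinda, 12.1 ± 2.46 in normal light Δlinda, 69.3 ± 3.81 in UV-C Col-0 and 7.32 ± 1.22 in normal light Col-0. It was 1 of 2 genes among the 16 whose genotypes did not overlap after UV-C either, as held for 3.57% of all tested genes. The other was AT2G33710, an ERF-type transcription factor, with an interaction of -1.3 ± 0.29.

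GSTU9 (AT5G62480), a tau-class glutathione transferase, had 300, 376, 334 and 269 CPM in UV-C Δlinda, 0.13, 0.553, 0.258 and 0.139 CPM in normal light Δlinda, 305, 322, 297 and 270 CPM in UV-C Col-0 and no counts in normal light Col-0. It rested on 14 counts over 4 libraries in normal light Δlinda against 0 in normal light Col-0. UV-C raised it at least 5170-fold in Col-0, against the level 3 counts across the 4 normal light libraries allow, and the fitted interaction of -4.83 depends on the prior count. AT3G49320, annotated as a metal-dependent hydrolase, had responses of 1.01 ± 0.20 in Δlinda and 2.37 ± 0.22 in Col-0. AT1G54010, a GDSL-type lipase, was the one gene of the 16 with responses of opposite sign, -0.13 ± 0.15 in Δlinda and 0.77 ± 0.15 in Col-0.

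**Figure D3:**
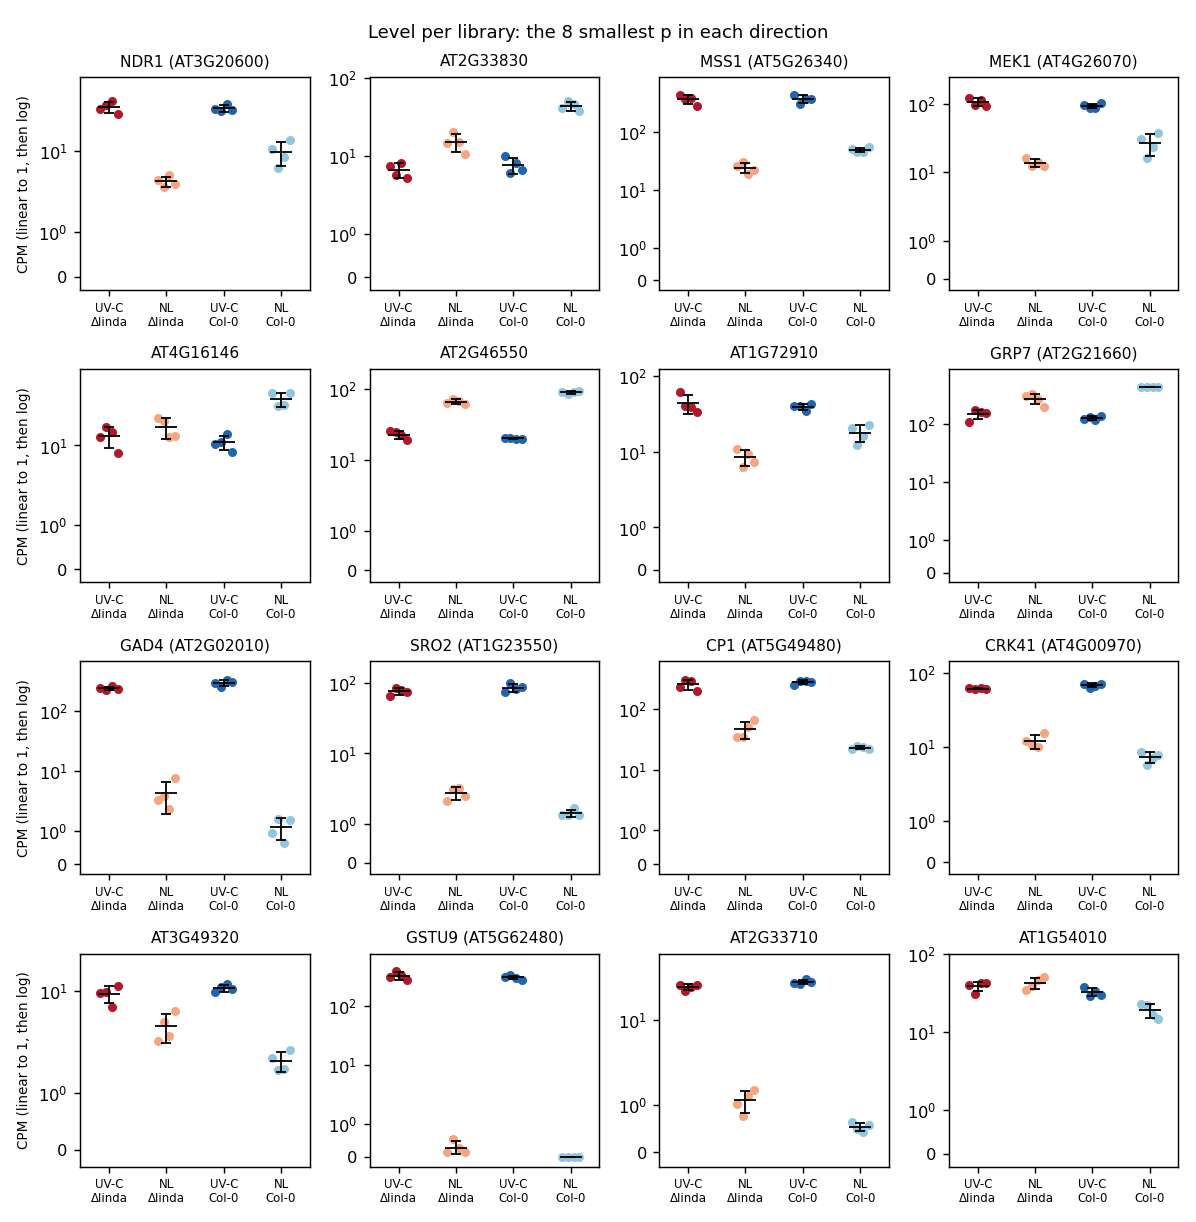
CPM per library (vertical axis, linear up to 1 and logarithmic above) of the 16 genes in the 4 groups; points are libraries, bars the mean and SD. The upper 8 have positive and the lower 8 negative interactions, and the genotypes lie farther apart in normal light than after UV-C in each panel.

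In all 16 genes the genotype difference was larger in normal light than after UV-C. The normal light libraries of the genotypes did not overlap in 15 of the 16, and the UV-C libraries did not overlap in 2. Over all tested genes, the genotypes did not overlap in normal light for 5.82% and after UV-C for 3.57%. Over the 1215 genes with a mean of 5 CPM or more and an unadjusted interaction p below 0.05, these shares were 25.3% in normal light and 13.1% after UV-C. The 16 genes were picked by that p, which the normal light libraries enter, so nothing is read from their count. Over the 14576 genes with a mean of 5 CPM or more, the difference was the larger one in normal light for 52.7%, and over the 1215 with the small p for 65.3% (794 genes). The 1215 genes were picked by the same p, so nothing is read from their shares either. Tested by itself in the same model, Δlinda against Col-0 gave 29 called genes in normal light, 9 higher and 20 lower (0.152%, 0.0471% and 0.105% of the genes tested), and 3 after UV-C, 2 higher and 1 lower (0.0157%, 0.0105% and 0.00524%). Of the 16 genes, 11 were among the normal light calls and 0 among those after UV-C, where edgeR gave 1401 of all genes (7.34%) an unadjusted p below 0.05 and DESeq2 called 25. These tests share their libraries with the interaction and are not separate evidence for it. The normal light count moved between 5 and 145 when single libraries were left out, reaching 5 without normal light Col-0 replicate 1 or replicate 4 and 145 without normal light Δlinda replicate 1.

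**Figure D4:**
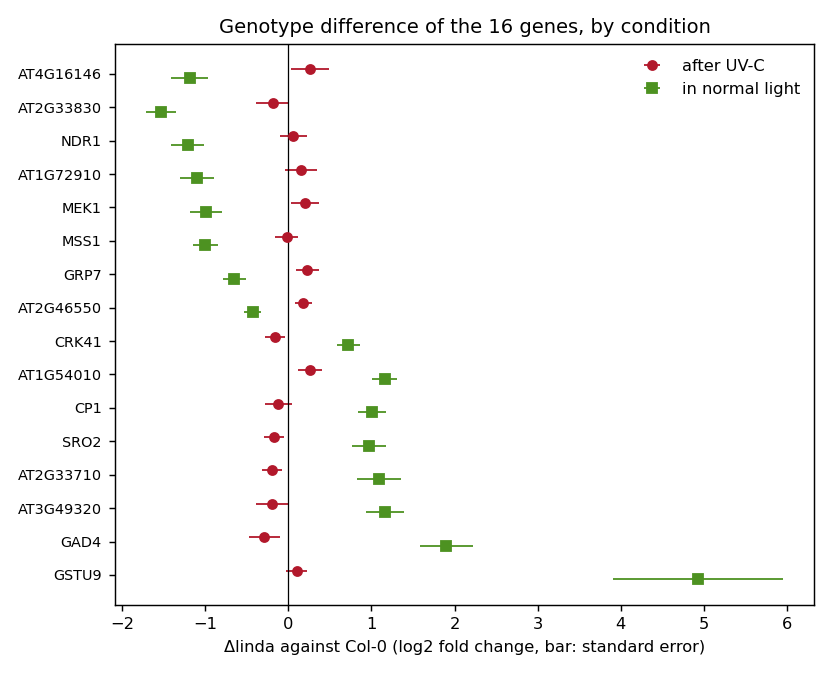
Log2 fold change of Δlinda against Col-0 (horizontal axis; bars are standard errors) of the 16 genes after UV-C (red circles) and in normal light (green squares), ordered by interaction. After UV-C the values lie between -0.29 and 0.26, while in normal light they run from -1.53 to 4.93.

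The MADS-box genes MAF4 (AT5G65070) and MAF5 (AT5G65080), neighbouring repressors of flowering that resemble each other, were called between the genotypes in both conditions. MAF5 had 9.75, 8.36, 9.99 and 10.9 CPM in UV-C Δlinda, 15.5, 12.3, 9.53 and 16.1 CPM in normal light Δlinda, 0.496, 1.74, 0.544 and 0.385 CPM in UV-C Col-0, and 1.11, 0.669, 0.361 and 0.732 CPM in normal light Col-0. Every Δlinda library lay above every Col-0 library. Δlinda against Col-0 was 3.61 ± 0.32 after UV-C (adjusted p = 4.4e-06) and 4.21 ± 0.33 in normal light (adjusted p = 2.7e-07), and the interaction -0.6 had an interval of -1.65 to 0.45. MAF4 was higher in Δlinda by 2.27 ± 0.25 after UV-C and 1.16 ± 0.23 in normal light, with an interaction of 1.12 (interval 0.41 to 1.82, adjusted p = 0.47). Salmon may have divided reads between these neighbours, so their separate levels are uncertain. AGL20, the flowering integrator also known as SOC1, was lower in Δlinda in normal light by a called -0.64 ± 0.12; after UV-C the difference was -0.67 ± 0.13 and not called.

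The gene lists were compared by their medians, and 0 members of any list were called by edgeR. Of 455 members tested, 55 had an unadjusted p below 0.05, against 7.77% of all tested genes. DESeq2 called 4 members, LHY, NIMIN2, PAL2 and CAT2. Members named from here on, some for a small p and some for their known role, were chosen after their values were seen. Of the salicylic acid list, the hormone of defence against biotrophic pathogens, 15 of 19 genes were tested; 4 were unclear in their decimals. UV-C raised all 15 tested members in both genotypes, as it did 37.5% of all tested genes in Δlinda and 37.3% in Col-0. The members' median response was 3.99 in Δlinda and 3.77 in Col-0. The interaction was positive for 14 of the 15 (52.4% of all tested genes) with a median of 0.42, against 0.02 over all tested genes, and 6 had an unadjusted p below 0.05 in the positive direction (4.42% of all genes tested had). The genotype difference had a median of 0.13 after UV-C and -0.31 in normal light.

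WRKY70 (AT3G56400), a transcription factor at the crossing of salicylic acid and jasmonate signalling, had 606, 400, 528 and 353 CPM in UV-C Δlinda, 27.7, 14.9, 19.2 and 8.8 CPM in normal light Δlinda, 476, 392, 359 and 504 CPM in UV-C Col-0, and 73.6, 31.8, 46.7 and 96.8 CPM in normal light Col-0. All normal light Col-0 libraries lay above all normal light Δlinda libraries, and the UV-C libraries overlapped. Its interaction was 1.97 ± 0.49 (interval 0.93 to 3.01, adjusted p = 0.39). NIMIN2 (AT3G25882), which binds the salicylic acid receptor NPR1, averaged 76.4 ± 21.9 CPM in UV-C Δlinda, 1.03 ± 0.349 in normal light Δlinda, 54.8 ± 11.6 in UV-C Col-0 and 3 ± 1.44 in normal light Col-0, and its relative NIMIN1 had an interaction of 2.19 ± 0.74. NPR4, a receptor of the same hormone, averaged 58.3 ± 10.8 CPM in UV-C Δlinda, 28.5 ± 1.62 in normal light Δlinda, 50.7 ± 3.61 in UV-C Col-0 and 38.4 ± 3.87 in normal light Col-0. The synthesis enzyme ICS1 and the immune regulator EDS1 had interactions of -0.02 (interval -0.45 to 0.41) and 0.03 (interval -0.38 to 0.43). Within the list, normal light Col-0 replicate 2 lay lowest against its group, by a median of -0.32 on the log2 scale. In the same group replicate 3 lay at -0.24, and replicates 1 and 4 each at 0.24. The part of this spread in the list's interactions was not tested.

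The list of pattern-triggered immunity, in which surface receptors detect microbial or damage-derived molecules, lay on the other side. Of 18 tested members 16 rose after UV-C in each genotype (37.5% of all tested genes did in Δlinda and 37.3% in Col-0), with a median response of 3.25 in Δlinda and 3.74 in Col-0, and the median interaction was -0.39. With an unadjusted p below 0.05 there were 5 members in the negative direction and 1, MPK11, in the positive direction, where 3.35% and 4.42% of all tested genes stood. Of the 5, PROPEP3 (-3.77) and PROPEP2 (-3.17) had no counts in normal light Col-0, so their interactions depend on the prior count. PEPR1 (AT1G73080), the receptor of the danger peptides released on damage, had 161, 141, 147 and 181 CPM in UV-C Δlinda, 16.8, 16.4, 17.3 and 19.3 CPM in normal light Δlinda, 187, 197, 192 and 194 CPM in UV-C Col-0, and 15.2, 16.1, 15.7 and 14.7 CPM in normal light Col-0. The genotypes did not overlap in either condition, lower in Δlinda after UV-C and higher in normal light. Its interaction was -0.47 ± 0.14 (adjusted p = 0.46). The receptor kinase gene FRK1, a marker of this response, had an interaction of -1.32 ± 0.44.

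In the UV and light response list, 15 of 17 tested members had a negative interaction, against 47.6% of all tested genes. In that direction 5 had an unadjusted p below 0.05, against 3.35% of all tested genes. UV-C Δlinda replicate 1 lay lowest against its group in this list, by a median of -0.37, and normal light Δlinda replicate 2 by -0.33; the part of either was not tested. The median interaction was -0.47, with a median response of -0.37 in Δlinda and -0.05 in Col-0. PAL1 and PAL2, which open the phenylpropanoid pathway to flavonoid sunscreens, had interactions of -0.71 ± 0.21 and -0.62 ± 0.17. PAL1 averaged 588 ± 140 CPM in UV-C Δlinda, 140 ± 21.5 in normal light Δlinda, 696 ± 68.9 in UV-C Col-0 and 101 ± 6.85 in normal light Col-0. HY5, the main activator of light-induced genes, averaged 3.7 ± 0.472 CPM in UV-C Δlinda, 7.45 ± 1.84 in normal light Δlinda, 5.28 ± 1.2 in UV-C Col-0 and 5.53 ± 1.1 in normal light Col-0, an interaction of -0.94 ± 0.31 (adjusted p = 0.47). In the list of camalexin and glucosinolate synthesis, 4 of 8 tested members had an unadjusted p below 0.05 in the negative direction (3.35% of all tested genes). The median of that list was -0.33. CYP79B2, which turns tryptophan into the precursor of camalexin and of indole glucosinolates, had an interaction of -0.72 ± 0.23. LOX4, a lipoxygenase of the jasmonate pathway, had one of -0.75 ± 0.20. It was the only 1 of 23 tested jasmonate members with an unadjusted p below 0.05. The interaction was positive for 13 of these 23 (52.4% of all tested genes), with a median of 0.06.

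CAT2 (AT4G35090), the main catalase of photosynthetic tissue, had its larger genotype difference after UV-C, -0.64 ± 0.15 (not called) against 0.18 ± 0.15 in normal light. It had 848, 1036, 1035 and 1072 CPM in UV-C Δlinda, 991, 943, 1180 and 1218 CPM in normal light Δlinda, 1331, 1755, 1699 and 1429 CPM in UV-C Col-0, and 760, 1094, 1168 and 798 CPM in normal light Col-0. The UV-C Col-0 libraries lay above all others, and the normal light groups overlapped. Its response was -0.12 ± 0.15 in Δlinda and 0.7 ± 0.15 in Col-0, with an interaction of -0.82 ± 0.21 (interval -1.26 to -0.39; adjusted p = 0.36 with edgeR and 0.031 with DESeq2). The oxidative stress list to which it belongs had a median interaction of -0.33. In it 3 of 13 tested members had an unadjusted p below 0.05, all negative, against 3.35% of all tested genes.

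Nuclear photosynthesis genes fell after UV-C in all 18 tested members in both genotypes, as did 34.6% of all tested genes in Δlinda and 35.8% in Col-0. Their median response was -1.53 in Δlinda and -1.85 in Col-0. The interaction was positive for 17 of the 18 (52.4% of all tested genes) with a median of 0.39. An unadjusted p below 0.05 was found for 2 of the 18, both positive, against 4.42% of all tested genes. Libraries stood apart in this list by up to the same size: UV-C Δlinda replicate 3 by 0.39, UV-C Δlinda replicate 4 by -0.35 and normal light Δlinda replicate 3 by 0.33, and their part was not tested. The abscisic acid and cold list had a median of 0.44, moved to 0.61 without normal light Δlinda replicate 1, and normal light Δlinda replicate 4 lay -0.7 from its group. NCED3, the rate-limiting enzyme of abscisic acid synthesis, averaged 41.9 ± 8.08 CPM in UV-C Δlinda, 5.26 ± 1.72 in normal light Δlinda, 44.8 ± 6.23 in UV-C Col-0 and 11.6 ± 3.05 in normal light Col-0, with an interaction of 1.08 ± 0.31 (adjusted p = 0.45). Among the clock genes, with a median of -0.05 over 20 members, the morning factor LHY had an interaction of -0.99 ± 0.25 and the evening gene FKF1 one of 1.13 ± 0.39. On each side 2 clock members had an unadjusted p below 0.05, where 4.42% (positive) and 3.35% (negative) of all tested genes stood. The cell death and autophagy list had a median of 0.14. In it 4 of 15 members had an unadjusted p below 0.05, all positive, against 4.42% of all tested genes. Among the 4 were ATG8A (0.6 ± 0.20) and the autophagy receptor NBR1 (0.39 ± 0.14).

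Members of the DNA damage lists had no called interaction. The list of break-response genes had a median interaction of -0.09 over 23 tested members, with a median response of 0.82 in Δlinda and 0.87 in Col-0. BRCA1 responded by 1.08 ± 0.20 in Δlinda and 1.28 ± 0.20 in Col-0 (interaction interval -0.78 to 0.38), and SOG1, the transcription factor that commands the plant DNA damage response, by 1.42 ± 0.13 in Δlinda and 1.5 ± 0.13 in Col-0 (interval -0.47 to 0.3). The one member with an unadjusted p below 0.05 was NAC044, a factor downstream of SOG1, which had 5.64 to 7.74 CPM in UV-C Δlinda, 0.26 to 1.18 in normal light Δlinda, 5.21 to 10.6 in UV-C Col-0 and 0.0732 to 0.557 in normal light Col-0, with overlapping genotypes in each condition. The UV lesion repair list had a median of -0.07 over 18 tested members and 0 at an unadjusted p below 0.05 in edgeR. The photolyase PHR1 responded by -0.36 ± 0.21 in each genotype (interval -0.62 to 0.63), and the photolyase UVR3 by -0.9 ± 0.33 in Δlinda and 0.01 ± 0.32 in Col-0 (interval -1.85 to 0.03).

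Transcripts of the organelle genomes had the lowest list medians. Of 89 tested chloroplast-encoded genes 78 rose after UV-C in Δlinda and 85 in Col-0 (37.5% and 37.3% of all tested genes), with a median response of 2.19 in Δlinda and 2.85 in Col-0, and the median interaction was -0.61. Of 29 tested mitochondria-encoded genes the median response was 1.96 in Δlinda and 2.76 in Col-0, and the median interaction -0.62. An unadjusted p below 0.05 was reached by 9 of the 89 chloroplast-encoded and 3 of the 29 mitochondria-encoded genes. All were negative, against 3.35% of all tested genes on that side. The median genotype difference of the chloroplast-encoded genes was -0.6 after UV-C and 0.04 in normal light, and that of the mitochondria-encoded genes -0.58 after UV-C and 0.13 in normal light. In both lists it was thus larger in size after UV-C than in normal light. Normal light Δlinda replicate 3 lay 1.2 above its group on the log2 scale in the chloroplast-encoded list and 1.22 above it in the mitochondria-encoded list. The ribosomal RNA share given above also separated the UV-C groups; the part of either in these medians was not tested.

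No tissue marker had a called interaction. Stomatal markers had a median of -0.07 over 9 tested members, with a median response of -1.8 in Δlinda and -1.71 in Col-0. Vascular markers had a median of -0.14 over 8 tested members, with a median response of 0.05 in Δlinda and 0.17 in Col-0. Only 3 of 12 root markers passed the filters, 7 being too weak and 2 unclear, and their median was -0.34. Of the other lists, the median interaction was 0.22 for cytokinin response, 0.17 for auxin and growth, 0.06 for jasmonate and 0.05 for heat shock. It was 0.02 for the unfolded protein response and for iron, phosphate and nitrate supply. For ethylene it was -0.01, for mitochondrial retrograde signalling -0.03, for cytosolic ribosomal proteins -0.04, for S phase -0.07 and for G2/M -0.13. The ribosomal list held only 14 tested genes, found by the wording of their reference descriptions, and does not stand for all such proteins. In bulk seedlings a change in the number of cells of a type and a change in RNA per cell cannot be told apart.

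**Figure D5:**
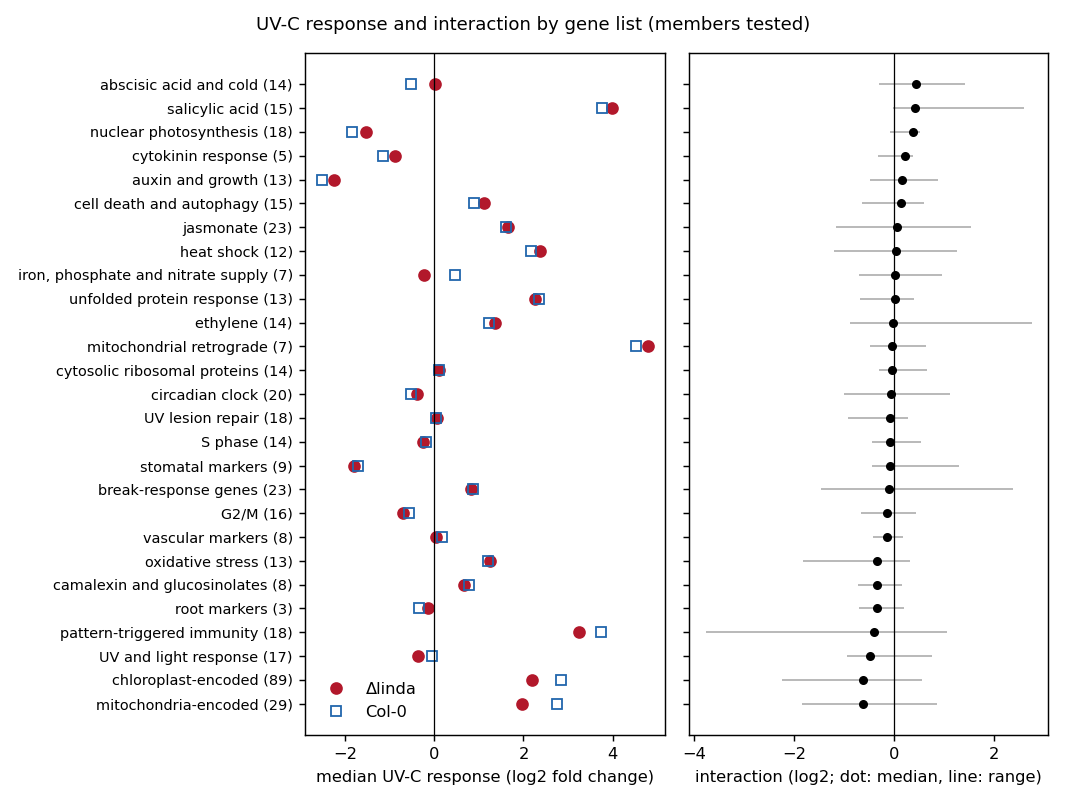
Left, median log2 UV-C response of each gene list in Δlinda (red circles) and Col-0 (blue squares); right, the list's median interaction (dot) and the range of its members (line), with the number of members tested in brackets. The medians of the interaction lie between -0.62 and 0.44.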

How the data were processed

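Per the submitters' processing notes, the tools were FastQC 0.72, Trimmomatic 0.38.0 and Salmon 0.14.1.2; the transcript set and genome build are not given in the sources used here. The table the authors deposited holds estimated counts, without normalisation, of 68575 identifiers in 30 libraries. Where an estimated count is not whole, its decimal point is absent from the deposited value, which then reads too high; no label mentions this, and it was inferred from the numbers.

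The point was restored per gene with a Bayesian model over all 30 libraries, in which an entry holds 0 to 3 decimals, replicates share a level, and the genotypes of a condition are tied more closely than the conditions. Decimals went to 107421 of 723692 entries above 0 (14.8%): 709 got 1, 6973 got 2 and 99739 got 3. A gene was left out where any of the 16 libraries had a probability under 0.99 for its placement, which removed 2728 genes (1151 of 19503 with a mean of 10 or more, 5.9%). In pairs of loci that share reads, 1545 of 1549 entry pairs read with 1 or 2 decimals added up to whole numbers. A sum whole at 3 decimals is also whole at 2 or 1, so this check cannot reveal entries read with too few decimals. Without group information, 0 entries were read differently over 59024 genes clear both ways. Genes unclear either way were left out of that count beforehand. Genes with no entry of 10 or more were given no decimals either way, so little can be read from the 0. Several settings of this model were tried in turn and judged by library totals, by the highest counts and, for the tie between genotypes, by called interactions: an earlier model without the tie had called genes whose sums with a neighbouring locus were whole only at another placement, and the tie was added after those calls were seen. The tie draws the genotypes together and so acts against finding an interaction in genes with restored decimals, 5881 of the 19092 tested.

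Restored counts were rounded to whole numbers, filtered with filterByExpr, scaled by TMM and fitted with edgeR 4.0.16 in R 4.3.3 (glmQLFit and glmQLFTest, robust, 1 coefficient per group, 16 libraries), with Benjamini-Hochberg adjustment over all tested genes at 0.05. DESeq2 1.42.0 was an alternative. Intervals are 95% and rest on the model's standard errors. CPM are TMM-normalised and carry no gene length, so levels are compared between samples, not between genes. The scripts were tested on simulated data. Replicates differed by more than counting noise in every pair. Replicate numbers were not used to pair samples, since the labels do not say that a number marks a shared batch. Of 24 same-numbered pairs, 4 had deviations correlated above 0.1 (range -0.09 to 0.21). Of 16 libraries, however, 9 correlated best with one of their own number. Whether a number marks a shared batch was not tested, and a replicate block was run as an alternative.

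As edgeR called no gene, named genes were the 8 of smallest edgeR p per direction with a mean of 5 CPM or more, plus AT3G00800 and AT3G45730. Genes, lists and tests were chosen with earlier results of these data known. All 368 list members written by symbol matched the reference, TAIR10.1, which served for names only; no coordinates or sequences are given. Promoter motifs were not examined, as the build of the files is not given.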

Additional observations from a re-analysis of the deposited data

Results flagged for a closer look

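Of 164 groups of 4 libraries checked (41 values in 4 groups each), 8 held a library whose gap to the nearest other relative to the group's range exceeded Dixon's 95% critical value; chance alone gives this in about 1 in 20 groups. In depth, normal light Δlinda replicate 1 had 7.966 M counts, against 13.38 M to 14.37 M in the others. LHY stood at 53.3 CPM in UV-C Δlinda replicate 4, against 35 to 37.5 in the others. CAT2 stood at 848 CPM in UV-C Δlinda replicate 1, against 1035 to 1072. PAL2 stood at 167 CPM in normal light Δlinda replicate 4, against 131 to 137. PAL1 stood at 594 CPM in UV-C Col-0 replicate 1, against 720 to 741. MAF5 stood at 1.74 CPM in UV-C Col-0 replicate 2, against 0.385 to 0.544. SRO2 stood at 1.66 CPM in normal light Col-0 replicate 3, against 1.32 to 1.35. AT3G00800 stood at 0.0795 CPM, a single count, in normal light Col-0 replicate 1, against 0 in the others.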

How the results depend on the processing

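The count of called interactions was 0 with RLE size factors, without the low-count filter, with all 30 libraries, with the replicate block, with decimals restored without group information, in genes with no restored decimal, without organelle and ribosomal RNA genes and against a log2 change of 0.5. DESeq2 called 33. Keeping unclear genes at their best placement gave 5, namely HTB9 (AT3G45980), AT3G07315, AT5G19940, AT5G19950 and AT3G48080. Chosen after seeing the data, restoration without the tie between genotypes gave 2, HTB9 and AT5G19940 (-3.2 and 3.51). In normal light Col-0, HTB9 and AT3G07315 added up to whole numbers in 4 of 4 libraries with 2 decimals and in 0 of 4 with 3, and AT5G19940 with AT5G19950 did so in UV-C Col-0. Read that way, the interaction was 0.12 for HTB9 and 0.19 for AT5G19940, and the count was 0. Also chosen after seeing the data, leaving out normal light Δlinda replicates 2 and 4 gave 2, with 1 list member called; DESeq2 called 4 list members. Leaving out single libraries gave 0 to 9; the 9 without normal light Col-0 replicate 2 were GAD4, AT1G65240, NDR1, MEKK3, MEK1, CRK5, AT4G22305, AT5G08760 and AT5G44820, and the 1 without normal light Δlinda replicate 3 was GAD4.

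Δlinda against Col-0 in normal light, 29 calls, gave 60 without the filter, 77 with the replicate block, 14 with unclear genes kept, 47 without the tie, 8 without normal light Δlinda replicates 2 and 4, 2 against a log2 change of 0.5 and 204 with DESeq2. After UV-C, 3 calls became 1 with decimals restored without groups, 1 in genes with no restored decimal, 7 with unclear genes kept and 25 with DESeq2. Leaving out single libraries gave 13352 to 13928 calls for UV-C in Δlinda, 13403 to 14128 in Col-0, 3 to 5 between genotypes after UV-C and 5 to 145 in normal light. After UV-C, Δlinda against Col-0 ran from -2.75 to -2.43 for AT3G00800 and from -0.13 to 0.18 for AT3G45730, which reversed without UV-C Δlinda replicate 2 (-0.13) or 3 (-0.04). The interaction of the 18 named genes kept its sign in all 504 values and became called in 18 of them, 14 with DESeq2. The auxin and growth median moved to 0.34 without normal light Δlinda replicate 1. The replicate block changed no call of the interaction; 9 of 16 libraries correlated best with one of their own number. Promoter motifs were not run. The median standard error of the interaction was 0.537 under 5 CPM and 0.204 at 5 CPM or more; the cause of each change above was not tested.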
